A study of Mus musculus with 6 samples.

Results

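Apolipoproteins are the protein components of lipoproteins, the particles that carry triglyceride, cholesterol and phospholipid through plasma, and hepatocytes are their main source. Apolipoprotein B (Apob) is the non-exchangeable scaffold of very low density lipoprotein and is loaded with lipid in the endoplasmic reticulum by the microsomal triglyceride transfer protein. The smaller exchangeable apolipoproteins of the A, C and E classes move between particles, and they activate or inhibit lipases and serve as ligands of receptors that clear remnants.

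The family described here was the set Apoa1, Apoa2, Apoa4, Apoa5, Apob, Apoc1, Apoc3, Apoe, Apoh and Apom, chosen by gene symbol. Of these 10 genes, 8 had a row annotated with their symbol alone, each had exactly 1 such row, and all 8 passed the filter on dim rows, out of 19123 genes tested in all. The remaining 2, Apoa1 and Apoc1, were listed only on rows that also carry the symbol of an unrelated gene, Tcea1 and Gcc1. Those 2 rows are given as rows and not as genes, and they were not tested.

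Expression was measured on mouse exon arrays, with 1 array per sample, in total RNA of perfused livers' hepatocytes, labelled as primary cultures, from untreated C57BL/6 mice aged 3 months. The 3 wild type samples are labelled WT and the 3 knockout samples SRSF1HKO, a hepatocyte-specific knockout of the splicing factor SRSF1. The sources used here do not name the driver of the deletion, the deleted exons or the time in culture. Nothing in the labels states that each array comes from its own animal. The p-values refer to these 6 samples, whose spread may be in part technical. On the values as deposited they hardly reflect a gene's own spread, because bright genes there share nearly the same standard error. Each row is a summary over 1 transcript unit, so exon use was not analysed here, and the value of a gene depends on both its transcript level and its exon choice.

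The scale of the arrays differed. The median intensity over all rows ran from 25.6 to 39.8 in wild type and from 18.6 to 28.8 in the knockout, and the difference of the median gene, knockout minus wild type, was -0.44 log2 units as deposited and -0.01 once the arrays were quantile normalized. The words rose and fell are kept for genes that limma called on both scales in 1 direction, at an adjusted p of 0.05 (Benjamini-Hochberg). On the deposited values most genes lie lower in the knockout, so this rule passes falls more readily than rises. Of 522 genes called higher after quantile normalization it kept 161, and of 270 called lower it kept 267. A list in which none rose is to be read with this limit. Knockout replicate 1 stood apart: it read 9.95 for Xist, against 2122 to 3532 on the other 5 arrays, and 130 for the Y-linked Eif2s3y, against 2.27 to 7.78. The labels give no sex, but these rows read as male RNA in knockout replicate 1 and female RNA on the other 5 arrays. Differences over all arrays carry this imbalance between the groups, and its part in them was not tested. Across genes knockout replicate 1 correlated with the other knockout arrays at 0.942 and 0.947 (Pearson's r), while these correlated with each other at 0.985. The brightest row of knockout replicate 1 read 7768, and that of the other arrays 10034.9 to 19074.1. The difference of each apolipoprotein is given with and without this array, and so are the counts of the gene lists on both scales. For other genes the value without it is given for part of those where leaving it out changed a call or moved the value. The Srsf1 row itself read 666, 667 and 607 in wild type, against 242, 371 and 386 in the knockout, with a difference of -0.52 ± 0.18 after quantile normalization (limma adjusted p = 0.185) and -0.95 on the deposited values (adjusted p = 0.010). Without knockout replicate 1 these were -0.35 (adjusted p = 0.0777) and -0.75 (adjusted p = 0.0501), so Srsf1 then passed on neither scale.

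The hepatocyte label was checked on 15 markers, of which 14 were measured. Albumin (Alb) read 9491 to 11050 on 5 arrays and 6937 in knockout replicate 1, and the other 13 read 798 or more on every array. Summed over the 14 markers, the intensity was 90820 to 98570 in wild type and 55010 to 84720 in the knockout, lowest in knockout replicate 1. These sums are of deposited values and carry the scale of the arrays. As deposited, the median difference of the markers was -0.39, beside -0.44 for all genes. In RNA from a mixed preparation, fewer cells of a type and less RNA per cell cannot be told apart.

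No apolipoprotein rose or fell by the rule of both scales. After quantile normalization 0 of the 8 tested genes passed in limma, beside 4.14% of all genes (2.73% higher and 1.41% lower), and 2 of them (Apoa4 and Apoh) had an unadjusted p under 0.05. On the deposited values Apom alone passed, beside 7.79% of all genes (0.931% higher and 6.86% lower), and 4 (Apoa2, Apoa5, Apoh and Apom) had an unadjusted p under 0.05. On both scales 2.24% of all genes passed, 0.842% higher and 1.40% lower. The differences after quantile normalization ran from -0.25 for Apom to 0.53 for Apoa4, and every 95% interval lay between -0.51 and 0.96, within 1 log2 unit of no difference. Their median was -0.07, and -0.05 without knockout replicate 1, where 0 passed beside 15.1% of all genes, and on the deposited values 1, Apom, beside 17.2%. On both scales without that array 0 passed, beside 0.957% of all genes higher and 5.28% lower. On the deposited scale the median of the 8 was -0.50, beside -0.44 for all genes. Quantile normalization sets a value by its rank within the array. Apoe ranked from 6 to 14 among the 238609 rows, and Apob, Apoa2, Apoh and Apoc3 from 46 to 173. Near the top this scale leaves little room, so narrow intervals of these genes do not show that their levels were unchanged.

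**Figure D1:**
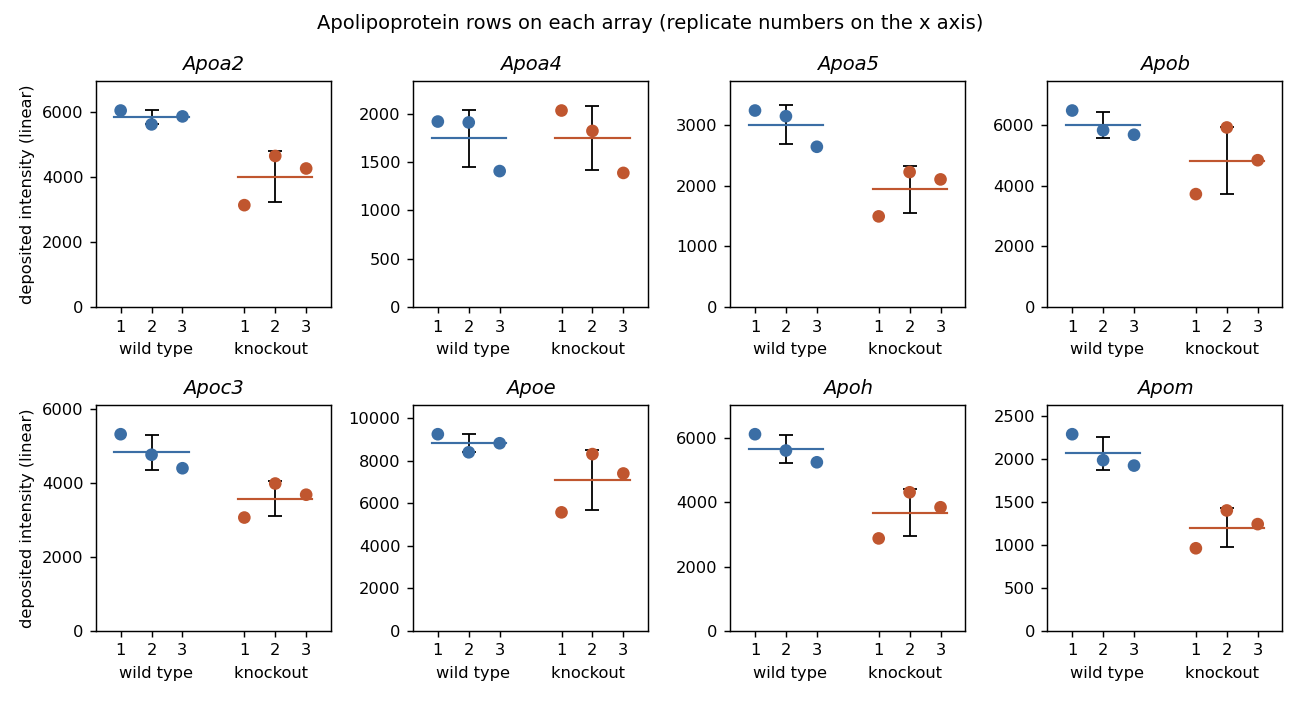
Deposited intensity (linear scale, from 0) of the 8 apolipoprotein rows on each array, with wild type in blue and knockout in orange. Points are arrays, horizontal lines are group means and bars are SDs (n = 3). For 6 of the 8 genes the knockout arrays lie below all wild type arrays, as they do for 28.0% of all genes (1.69% lie above), while the groups overlap for Apob and Apoa4.

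The genes of the cluster of Apoa1, Apoc3, Apoa4 and Apoa5 lie next to each other on chromosome 9, in this order by the RefSeq annotation of GRCm38.p6, and the pair Apoa4 and Apoa5 differed most in how they moved. The 250 bases before the annotated starts of these 2 genes are shown for that reason, with those of Apoh, the member with the smallest p after quantile normalization. They are RefSeq sequences of GRCm38.p6, all on the plus strand, from chr9:46240594-46240843, chr9:46268358-46268607 and chr11:108395047-108395296. Capitals mark the only matches to the motifs searched on both strands, the TATA box TATAAA and the nuclear receptor half-site AGGTCA, whose reverse complement is TGACCT.
Apoa4: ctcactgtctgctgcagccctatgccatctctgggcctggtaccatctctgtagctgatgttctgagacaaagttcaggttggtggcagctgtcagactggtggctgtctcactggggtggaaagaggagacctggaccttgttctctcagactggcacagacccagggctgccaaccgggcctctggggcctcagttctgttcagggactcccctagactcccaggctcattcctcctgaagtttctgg
Apoa5: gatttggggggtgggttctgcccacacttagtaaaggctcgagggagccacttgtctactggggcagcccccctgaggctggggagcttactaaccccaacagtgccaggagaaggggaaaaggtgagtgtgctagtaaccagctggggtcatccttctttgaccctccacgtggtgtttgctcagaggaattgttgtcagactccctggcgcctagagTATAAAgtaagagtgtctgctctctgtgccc
Apoh: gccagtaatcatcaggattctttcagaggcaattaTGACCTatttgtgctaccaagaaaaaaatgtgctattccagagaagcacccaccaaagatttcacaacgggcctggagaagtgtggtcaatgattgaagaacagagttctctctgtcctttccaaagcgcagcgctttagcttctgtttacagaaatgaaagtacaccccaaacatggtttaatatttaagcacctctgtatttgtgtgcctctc
The Apoa5 window holds 1 TATA box, which begins 31 bases before the start, and the Apoh window 1 half-site, which begins 215 bases before it. The Apoa4 window holds neither. Of all 32851 windows of this length, 12.4% hold TATAAA and 14.0% hold AGGTCA on either strand. A match describes the letters and is not a binding site.

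Among apolipoproteins of high density lipoprotein, Apoa2, the second most abundant protein of this particle, had intensities of 6046, 5619 and 5865 in wild type, against 3135, 4648 and 4263 in the knockout. All knockout arrays lay below all wild type arrays, and the knockout mean was 68.7% of the wild type mean. After quantile normalization the groups still did not overlap, which was so in this direction for 10.1% of all genes. The difference there was -0.15 ± 0.07 log2 units (SE, 95% interval -0.32 to 0.01, limma adjusted p = 0.361), and -0.13 ± 0.07 without knockout replicate 1. As deposited, it was -0.56 ± 0.25 (adjusted p = 0.134).

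Apom, a lipocalin that carries sphingosine 1-phosphate on high density lipoprotein, read 2287, 1985 and 1922 in wild type, against 960, 1400 and 1241 in the knockout. Its knockout mean, 58.2% of that of wild type, was the lowest ratio among the 8 genes. On the deposited values it differed by -0.79 ± 0.26 log2 units (limma adjusted p = 0.0334), where the median gene differed by -0.44. After quantile normalization the groups overlapped and the difference was -0.25 ± 0.11 (95% interval -0.51 to 0.004, adjusted p = 0.336), and -0.22 ± 0.10 without knockout replicate 1. The call on the deposited values was lost without wild type replicate 1 (adjusted p = 0.315), wild type replicate 2 (0.216), knockout replicate 2 (0.0747) or knockout replicate 3 (0.158). It held without knockout replicate 1, at -0.64 ± 0.24 (adjusted p = 0.0465).

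The row shared by Apoa1, the main structural protein of high density lipoprotein and activator of lecithin-cholesterol acyltransferase, and Tcea1 read 9482, 8759 and 8711 in wild type, against 6139, 8998 and 7833 in the knockout. Its groups overlapped, and its difference after quantile normalization was -0.002, given without a test. On every array it ranked from 6 to 8 among the 238609 rows, so a rise would have little room on that scale. Which of the 2 genes the probes of this row measure was not tested.

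Apob, the scaffold of very low density lipoprotein, read 6471, 5820 and 5674 in wild type, against 3719, 5913 and 4835 in the knockout. Knockout replicate 2 lay above wild type replicates 2 and 3, so the groups overlapped. After quantile normalization the difference was 0.04 ± 0.07 (95% interval -0.11 to 0.20, limma adjusted p = 0.876), and 0.09 ± 0.07 without knockout replicate 1.

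Apoe, the ligand through which remnant particles bind receptors of the low density lipoprotein receptor family, read 9238, 8389 and 8814 in wild type, against 5566, 8304 and 7393 in the knockout. The knockout arrays were lower on the deposited scale, with knockout replicate 2 just under the lowest wild type array, and the groups overlapped after quantile normalization. There the difference was -0.04 ± 0.05 (95% interval -0.16 to 0.08, limma adjusted p = 0.845), and -0.02 ± 0.06 without knockout replicate 1. Macrophages also express Apoe, and 14 of 15 macrophage markers were measured. Their summed intensity was 896 to 2046 in wild type and 1436 to 1903 in the knockout, none read 0, and 1, the lysosomal glycoprotein Cd68, rose (1.81 ± 0.35, adjusted p = 0.0214), a call lost after quantile normalization without wild type replicate 2 (adjusted p = 0.0982), wild type replicate 3 (0.116) or knockout replicate 2 (0.0506). Without knockout replicate 1 Cd68 was still the only one to pass on both scales. After quantile normalization alone the leukocyte phosphatase Ptprc also passed (0.71, adjusted p = 0.0304), and 6 of the 14 lay higher without overlap, beside 11.6% of all genes. Cd5l had 0.73 (adjusted p = 0.052), the Kupffer cell marker Timd4 0.52 (0.0762), C1qc 0.73 (0.104) and the Kupffer cell marker Clec4f 0.13 (0.783). In the fit without knockout replicate 1, 6 of the 14 passed there, all higher, beside 1859 of all 19127 genes. Ptprc, Cd5l, Timd4 and C1qc were among these 6. The part of macrophage RNA in the Apoe value was not tested.

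Apoc3, an inhibitor of lipoprotein lipase and of remnant uptake, read 5310, 4756 and 4391 in wild type, against 3059, 3978 and 3676 in the knockout, without overlap. After quantile normalization the difference was -0.004 ± 0.067 (95% interval -0.16 to 0.15, limma adjusted p = 0.991), and -0.045 ± 0.065 without knockout replicate 1. As deposited, it was -0.44, the same to 2 decimals as that of the median gene.

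Apoa5, which promotes the hydrolysis of triglyceride-rich lipoproteins, read 3242, 3148 and 2644 in wild type, against 1496, 2227 and 2106 in the knockout. The groups did not overlap, and the knockout mean was 64.5% of the wild type mean. After quantile normalization they overlapped, with a difference of -0.10 ± 0.08 (95% interval -0.29 to 0.09, limma adjusted p = 0.694), and -0.053 ± 0.073 without knockout replicate 1. As deposited, it was -0.64 ± 0.25 (adjusted p = 0.0912). Without wild type replicate 3 Apoa5 passed on the deposited values (-0.73, adjusted p = 0.0319), where 7099 genes passed.

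Apoa4, an apolipoprotein of intestine and liver that rises with dietary fat and fasting in mouse liver, read 1918, 1909 and 1406 in wild type, against 2032, 1821 and 1387 in the knockout, with group means of 1744 ± 293 and 1747 ± 329 (SD, n = 3) and overlapping groups. The deposited difference was -0.001, with a 95% interval of -0.50 to 0.50 that holds the -0.44 of the median gene. After quantile normalization all knockout arrays lay above all wild type arrays, as for 11.6% of all genes: 10.49, 10.54 and 10.50 log2 units in wild type, against 11.52, 10.95 and 10.63 in the knockout. The difference was 0.53 ± 0.19 (95% interval 0.10 to 0.96, limma adjusted p = 0.206), and 0.29 ± 0.10 without knockout replicate 1 (adjusted p = 0.0736). Knockout replicate 1 held the highest value of the 6 arrays.

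Apoh, also called beta-2-glycoprotein I, a plasma protein that binds anionic phospholipid, read 6122, 5615 and 5248 in wild type, against 2877, 4313 and 3847 in the knockout. The groups did not overlap on either scale. The difference after quantile normalization was -0.22 ± 0.06 (95% interval -0.36 to -0.08), with an unadjusted p of 0.00625 that did not pass over all genes (limma adjusted p = 0.0967). Without knockout replicate 1 it was -0.20 ± 0.07 (adjusted p = 0.0594). After quantile normalization Apoh alone of the 8 had an interval below 0, and Apoa4 alone an interval above 0. As deposited, the intervals of Apoa2, Apoa5 and Apom lay below 0 too, and that of Apoa4 held 0.

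**Figure D2:**
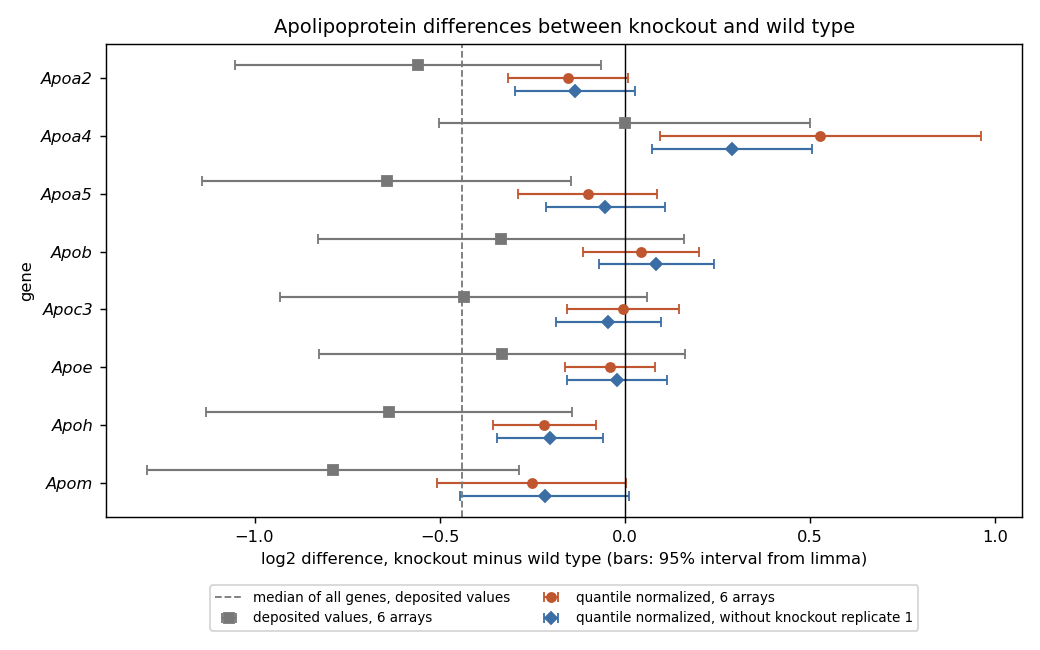
Log2 difference (knockout minus wild type) of each apolipoprotein with its 95% interval from limma, on the deposited values (grey), after quantile normalization (orange) and after quantile normalization without knockout replicate 1 (blue). The dashed line is the median gene on the deposited values, -0.44; on that scale most members lie around the line, and after quantile normalization around 0, with Apoa4 the highest at 0.53.

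Differences between neighbouring genes within an array do not carry an offset that all its rows share. An offset that varies with brightness need not cancel. Apoe moved from -0.33 as deposited to -0.04 after quantile normalization, and the dimmer Apoa5 from -0.64 to -0.10. The level of a within-array difference depends on the probes, so only the change between groups is read. Of 7 planned pairs 3 could be formed from rows of 1 symbol. Apoa4 minus Apoa5 was -0.75, -0.72 and -0.90 log2 units in wild type, against 0.44, -0.29 and -0.60 in the knockout, on the deposited values. All knockout arrays lay above the wild type arrays, and the change was 0.64 (exact two-sided permutation p = 0.1, the smallest that 3 against 3 arrays allow, and 0.15 adjusted over the 3 pairs). Without knockout replicate 1 it was 0.35. Apoc3 minus Apoa5 was 0.71, 0.59 and 0.73 in wild type, against 1.02, 0.83 and 0.80 in the knockout, a change of 0.21 (exact permutation p = 0.1, adjusted 0.15) that was 0.10 after quantile normalization, where the groups overlapped. Apoc3 minus Apoa4 changed by -0.43 (exact permutation p = 0.2, adjusted 0.20), and its groups overlapped. After quantile normalization it changed by -0.53 without overlap (exact permutation p = 0.1, adjusted 0.15). No pair could pass the threshold in this design.

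The other cluster, on chromosome 7, holds Apoc2, Apoc4, Apoc1 and Apoe next to each other. The row shared by Apoc1, an inhibitor of lipoprotein binding and lipase activity, and Gcc1 read 5843, 5683 and 5519 in wild type, against 3473, 5225 and 4687 in the knockout, and differed by 0.04 after quantile normalization, without a test. Apoc2, the activator of lipoprotein lipase, is no member of the set of 10 and comes from a list of 14 other apolipoproteins. It read 2940, 2771 and 2298 in wild type, against 2713, 3427 and 2835 in the knockout, with overlapping groups. After quantile normalization its difference was 0.68 ± 0.09 (limma adjusted p = 0.00486), and on the deposited values 0.16 (adjusted p = 0.580), so it passed on 1 scale. Apoc4, its neighbour, read 5178, 4622 and 4292 in wild type, against 3061, 3989 and 3553 in the knockout, with a difference of 0.02 ± 0.07 after quantile normalization (adjusted p = 0.955), and -0.028 without knockout replicate 1.

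This pair was looked at within arrays after its values had been seen, so it is given with no test. On the deposited values Apoc2 minus Apoc4 was -0.81, -0.73 and -0.90 in wild type, against -0.17, -0.22 and -0.32 in the knockout, without overlap. Apoc2 minus Apoe changed by 0.50 there, and Apoc4 minus Apoe by -0.08. After quantile normalization Apoc2 differed by 0.68, Apoc4 by 0.02 and Apoe by -0.04, so the change of Apoc4 minus Apoe then has the other sign.

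**Figure D3:**
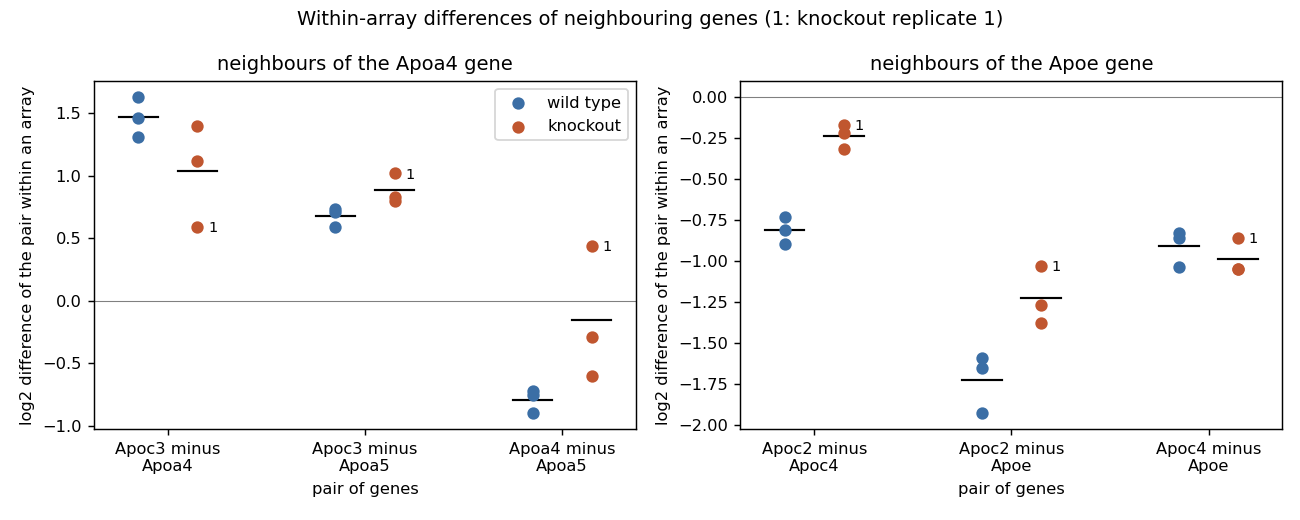
Within-array log2 differences of neighbouring apolipoprotein genes on the deposited values, by group, for the genes around Apoa4 (left) and around Apoe (right). Points are arrays, lines are group means and the digit marks knockout replicate 1; Apoa4 minus Apoa5 is above all wild type arrays in the knockout with knockout replicate 1 the highest at 0.44, and Apoc2 minus Apoc4 lies between -0.32 and -0.17 in the knockout and between -0.90 and -0.73 in wild type.

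Among the 14 other apolipoproteins 11 were measured, and none passed on both scales, with or without knockout replicate 1. After quantile normalization Apoc2 and clusterin (Clu, apolipoprotein J) passed, both higher. Clu read 3010, 2945 and 2449 in wild type, against 3284, 3903 and 2897 in the knockout, with a difference of 0.76 ± 0.12 (limma adjusted p = 0.00977) and of 0.26 on the deposited values (adjusted p = 0.395). Saa4, the constitutive serum amyloid A of high density lipoprotein, differed by -0.21 and Apol7a by -0.45, and neither passed after quantile normalization. Without knockout replicate 1, where Apol7a read 245 against 493 to 957 elsewhere, Saa4 differed by -0.09 and Apol7a by -0.10. The median of the 11 was 0.02, beside -0.01 for all genes.

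Of 11 measured genes for the assembly of apolipoprotein B particles, 1 fell, none rose and 10 did not pass on both scales, with a median of 0.04. Mttp, the large subunit of the microsomal triglyceride transfer protein, read 2948, 2893 and 2196 in wild type, against 1057, 1575 and 1429 in the knockout. All knockout arrays were lower, and the difference after quantile normalization was -0.46 ± 0.09 (limma adjusted p = 0.0242), and -0.41 without knockout replicate 1 (adjusted p = 0.00418). The call after quantile normalization was lost without wild type replicate 1 (adjusted p = 0.119), 2 (0.134) or 3 (0.110) or knockout replicate 3 (0.063). Mia3, a cargo receptor for the export of large particles from the endoplasmic reticulum, differed by -0.51 (adjusted p = 0.138), the phospholipase-like Pla2g12b by 0.33, the coat GTPase Sar1b by -0.24 and Mia2 by -0.18, none of which passed after quantile normalization. When knockout replicate 1 was left out, Mttp and Mia3 passed on both scales, Mia3 with -0.33 (adjusted p = 0.0279) and, as deposited, -0.73 (0.0404). Pla2g12b then had 0.20, Sar1b -0.12 and Mia2 -0.11.

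Apob mRNA is edited in mouse liver by the deaminase Apobec1 with RNA-binding cofactors, which sets the balance of the long and short forms of the protein. The arrays do not report editing. Of 7 genes around this step 1 fell, none rose and 6 did not pass on both scales, with a median of 0.00. Apobec1 read 700, 497 and 407 in wild type, against 451, 346 and 313 in the knockout, with overlap and a difference of -0.002 ± 0.21 after quantile normalization (limma adjusted p = 0.998). The RNA-binding protein Celf2 read 142, 195 and 105 in wild type, against 43.6, 34.4 and 38.7 in the knockout, a difference of -1.12 ± 0.14 (adjusted p = 0.00287), and -1.06 without knockout replicate 1. Celf2 has several rows, and with their median in place of the brightest row it had -0.55 after quantile normalization and was not called there (adjusted p = 0.0545). Celf2 was also the only gene of the list to pass on both scales without knockout replicate 1. The cofactor A1cf differed by -0.32 and Rbm47 by -0.22, and neither passed after quantile normalization. Without that array A1cf had -0.10, and Apobec1 had -0.22 (adjusted p = 0.319). Syncrip then passed after quantile normalization alone (0.39, adjusted p = 0.0465), against 0.12 (0.899) with all arrays. With all arrays Hnrnpab passed after quantile normalization with 0.42 (adjusted p = 0.0486) but differed by -0.10 on the deposited values, and Khsrp had 0.33 (adjusted p = 0.193).

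In the list for the formation and remodelling of high density lipoprotein 13 of 14 genes were measured, of which 2 fell, none rose and 11 did not pass on both scales. The median was -0.20, and -0.18 without knockout replicate 1. Lipg, the endothelial lipase that hydrolyses phospholipid of this particle, read 1495, 1300 and 876 in wild type, against 313, 401 and 387 in the knockout. The difference was -1.2 ± 0.12 (limma adjusted p = 0.00116), and it passed on both scales in each of the 13 alternative settings run. Gpld1, a phospholipase that circulates with Apoa1, fell by 0.35 on the log2 scale (adjusted p = 0.0340), a call lost without any single wild type array (adjusted p = 0.101 to 0.191) or without knockout replicate 2 or 3 (0.107 and 0.0947). The lipid exporter Abcg1 passed after quantile normalization alone (0.79, adjusted p = 0.0318). Lcat, the acyltransferase that Apoa1 activates, differed by -0.20 (adjusted p = 0.0967), the phospholipid transfer protein Pltp by -0.52 (adjusted p = 0.156) and the paraoxonase Pon1 by -0.41 (adjusted p = 0.247). With knockout replicate 1 left out, Lipg, Gpld1 and Pltp passed on both scales, Pltp with -0.545 (adjusted p = 0.0425), and Lcat passed after quantile normalization alone (-0.21, adjusted p = 0.0484). Pon1 read 2406 in knockout replicate 1, 5339 to 7504 elsewhere, and differed by -0.18 without that array.

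Of 5 measured genes of lipolysis in plasma, 1 rose, none fell and 4 did not pass on both scales. Lpl, the lipoprotein lipase on which Apoc2, Apoc3 and Apoa5 act, read 279, 416 and 373 in wild type, against 668, 1056 and 681 in the knockout. All knockout arrays were higher, and the difference was 1.59 ± 0.22 (limma adjusted p = 0.00487), and 1.64 without knockout replicate 1. The call on the deposited values was lost without wild type replicate 1 (adjusted p = 0.0948) or knockout replicate 2 (0.109). Adult hepatocytes express little Lpl, which is known from fat, muscle and macrophages. Beside it, the median of the macrophage markers after quantile normalization was 0.50 and that of 11 stellate cell markers 0.34, of which none passed on either scale. As deposited, the 2 medians were 0.06 and -0.09, beside -0.44 for all genes. Summed, the stellate markers read 1872 to 3101 in wild type and 2134 to 3230 in the knockout, and none read 0. In the fit without knockout replicate 1, 5 of the 11 passed after quantile normalization, all higher, beside 1859 of all 19127 genes. The matrix genes Dcn (1.30, adjusted p = 0.000228) and Lum (1.78, adjusted p = 6.94e-05) passed on both scales, beside 0.957% of all genes higher. With all arrays Dcn had 0.95 (adjusted p = 0.097), Pdgfrb 0.76 (0.125), Col1a2 0.46 (0.133) and Lum 1.17 (0.206). The part of these cells in the Lpl value was not tested. Its inhibitor Angptl4 read 2393, 2265 and 1855 in wild type, against 1288, 563 and 412 in the knockout. It passed on the deposited values (-1.66, adjusted p = 2.1e-08) but not after quantile normalization (-1.12 ± 0.40, adjusted p = 0.200), with -1.73 once knockout replicate 1 was left out (adjusted p = 5.12e-06). Angptl8 differed by 1.19 ± 0.57 (adjusted p = 0.377) and read 267 to 1884 among the knockout arrays. With knockout replicate 1 left out, Angptl8 had 1.89 (adjusted p = 0.0062) and, as deposited, 1.45 (2.12e-05), so that Lpl and Angptl8 passed higher and Angptl4 and Lmf1 (-0.29, adjusted p = 0.0389) lower on both scales.

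Among receptors and other genes of clearance 10 of 13 were measured and none passed on both scales, with a median of -0.05. The heparan sulfate proteoglycan Sdc1, which binds remnants through their apolipoproteins in mouse liver, passed after quantile normalization alone (0.75 ± 0.14, limma adjusted p = 0.0175, and 0.22 on the deposited values). The lipolysis-stimulated receptor Lsr differed by 0.56 (adjusted p = 0.0883), Apobr by 0.42 and the chaperone Lrpap1 by -0.29, and none of these passed after quantile normalization. The large remnant receptor Lrp1 had 0.08. With knockout replicate 1 left out, Lsr passed after quantile normalization alone (0.44, adjusted p = 0.0326), and the endocytic receptor Lrp2 passed on both scales, with -0.47 (adjusted p = 0.0203) against -0.22 (0.740) with all arrays.

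Of 24 measured transcription regulators that are known to act on apolipoprotein genes, 2 fell, none rose and 22 did not pass on both scales, with a median of -0.08. Hnf4a, a nuclear receptor that binds the promoters of most of the family, read 4955, 4679 and 3479 in wild type, against 2700, 3182 and 3545 in the knockout, with overlap and a difference of -0.01 ± 0.10 (limma adjusted p = 0.985), and -0.048 without knockout replicate 1. Creb3l3, a factor known to induce Apoa4 in mouse liver, differed by -0.15 ± 0.12 (adjusted p = 0.685). The fatty acid receptor Ppara fell, from 4062, 4105 and 3013 to 1520, 1896 and 1778, a difference of -0.57 ± 0.09 (adjusted p = 0.0072) whose call on the deposited values was lost without wild type replicate 2 (adjusted p = 0.0697). The glucose-responsive factor Mlxipl fell by 0.64 on the log2 scale (adjusted p = 0.0299), and its call after quantile normalization was lost without any single array other than knockout replicate 1 (adjusted p = 0.0706 to 0.149). Without that array Ppara had -0.61 and Mlxipl -0.77. Nr2f6 (0.51), the repressor Nr0b2 (-0.59), the bile acid receptor Nr1h4 (-0.50) and Prox1 (0.38) did not pass after quantile normalization. When knockout replicate 1 was left out, Nr2f6 (0.45, adjusted p = 0.0207), Prox1 (0.68, adjusted p = 0.000619) and Nr2f2 (0.41, adjusted p = 0.0268) passed there alone, and Nr1h4 had -0.14 (adjusted p = 0.375). On both scales 6 of the 24 then passed, all lower, beside 5.28% of all genes. They were Ppara, Mlxipl, Nr0b2 (-0.79, adjusted p = 0.0254), Foxo1 (-0.60, 0.00519), Nr1d1 (-0.74, 0.0156) and Cebpb (-0.60, 0.00123). Nr1d1 is dim: it read 48.2, 48.4 and 25.9 in wild type, against 49.2, 10.3 and 8.87 in the knockout. In knockout replicates 2 and 3 it thus lay under the pseudocount of 16, and it passed the filter on dim rows in this fit through wild type. Creb3l3 had -0.26 (adjusted p = 0.108). With all arrays Foxo1 had -0.33, Nr1d1 -0.38, Cebpb -0.23 and Nr2f2 0.12.

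**Figure D4:**
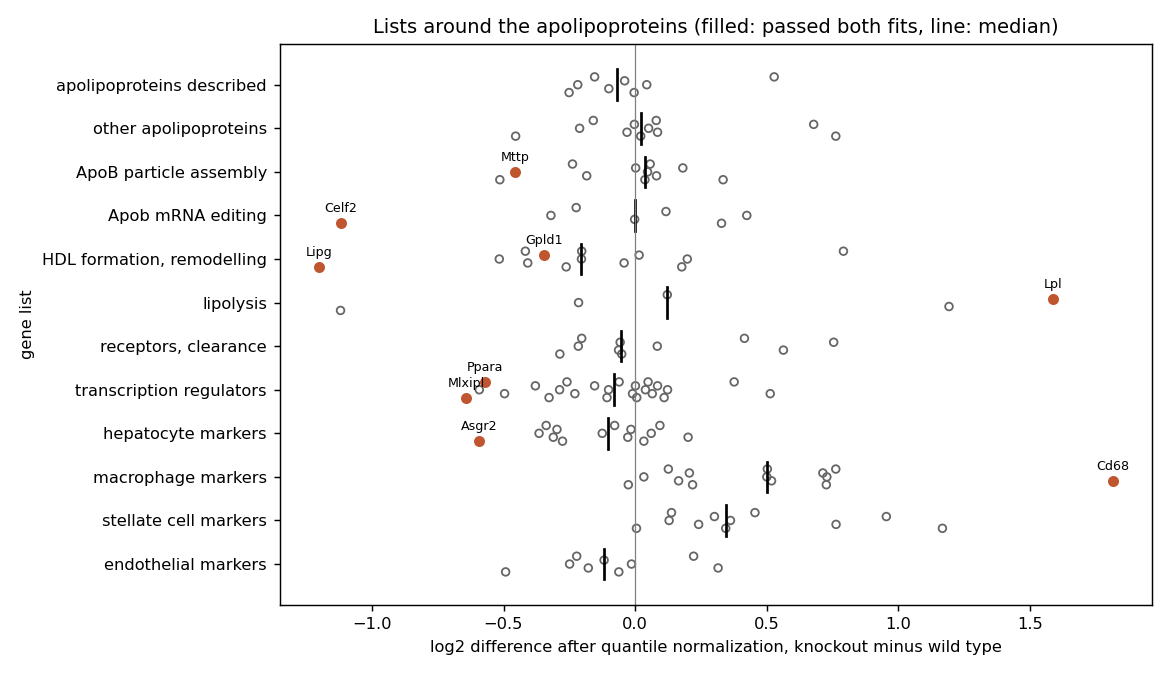
Log2 difference (knockout minus wild type, quantile normalized) of each measured gene in the lists around the apolipoproteins and in the cell type marker lists. Filled points with names passed on both scales, open points did not, and the vertical line is the median of the list; the apolipoproteins lie between -0.25 and 0.53 with none filled, and the macrophage markers have a median of 0.50.

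Across the 14 hepatocyte markers the median was -0.10, close in size to the -0.07 of the apolipoproteins, and 1 marker, the asialoglycoprotein receptor subunit Asgr2, fell (-0.59 ± 0.11, limma adjusted p = 0.0152). That call was lost after quantile normalization without any single wild type array (adjusted p = 0.0613 to 0.0981). In the fit without knockout replicate 1, Asgr2 and Pck1 (-0.25, adjusted p = 0.0330) passed on both scales. Alb was the brightest row on every wild type array, so quantile normalization set it to the same value, 13.52, on all 3, and its difference on that scale is not read as a change. As deposited, Alb differed by -0.26 (adjusted p = 0.383), less than the median gene. Endothelial markers had a median of -0.12 over 9 genes, cholangiocyte markers of 0.00 over 4 and lymphocyte markers of 0.13 over 3, and none of them passed on both scales, with or without knockout replicate 1.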

How the data were processed

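The authors deposited 1 intensity per row and array. The submitters' processing notes name PLIER and the mm9 build. No source used here gives the PLIER version or says how arrays were normalized to each other. From the values, the intensities are linear and positive. Of 238609 rows, 24343 carry 1 gene symbol in the platform annotation and 1797 several, and the latter were named as no gene. Values were transformed as log2(intensity + 16), rows under the 40th percentile of the mean were left out, and for each gene the brightest row was taken. Knockout and wild type were compared with limma 3.58.1 in R 4.3.3 (intensity trend, no covariates), after quantile normalization of all rows and on the deposited values, adjusted over 19123 genes. On the deposited values the fit gives bright genes nearly the same standard error, whatever their own spread. Xist, which knockout replicate 1 lacked, had a standard error of 0.257 there and of 1.454 after quantile normalization. The test was checked on simulated data of the quantile scale with 19123 genes, where it recovered 70% of decreases and 72% of increases of 1 log2 unit. There the noise was independent between genes, with no offset shared within an array, and the changed genes were picked at random. The shares recovered therefore do not give the power for the members, which are bright and differed by less.

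The members, the gene lists and the rule of both scales were chosen with earlier results of these data known. All members are named, and of each list the genes past both scales and up to 4 others by p. Further genes (Lrp1, Lrp2, Hnf4a, Creb3l3, Foxo1, Nr1d1, Cebpb, Nr2f2, Apobec1, Syncrip, Clec4f, Apoc4) were named after their values were seen. Alternatives were a pseudocount of 1 or of 64, a dim-row filter left out or set to the 60th percentile, median centring, cyclic loess, the median of a gene's rows, 2 other variance models and leaving out each array. Sequences are from RefSeq GRCm38.p6, which held starts for 8 of the 10 members, and no coordinates of array rows are given. Alternatives for the counts on both scales were chosen after seeing the data.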

Additional observations from a re-analysis of the deposited data

How the results depend on the processing

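No apolipoprotein passed on both scales, or after quantile normalization alone, under any alternative run for those counts. On the deposited values the count was 1 under every alternative that kept all arrays, and 0 to 2 when single arrays were left out. Leaving out single arrays moved the calls over all genes from 309 to 2889 after quantile normalization and from 394 to 7099 on the deposited values, and those on both scales in the lists around the family from 3 to 17. Without an intensity trend the latter count was 4 in place of 7, as Mttp (adjusted p = 0.0829), Gpld1 (0.167) and Mlxipl (0.0646) were not called. Some differences changed sign without passing. On the deposited values Apoa4 had -0.001, where it had 0.528 after quantile normalization, and Apob -0.335. Apob had -0.014 with median centring, and -0.018 to 0.085 when single arrays were left out. Apoc3 had 0.075 with cyclic loess and -0.045 to 0.019 when single arrays were left out, and was above 0 without wild type replicate 1 (0.007) or knockout replicate 2 (0.012) or 3 (0.019). Apoe had 0.182 with cyclic loess. The cause was not tested. Within arrays, leaving out single arrays gave 0.349 to 0.866 for Apoa4 minus Apoa5, 0.139 to 0.251 for Apoc3 minus Apoa5 and -0.615 to -0.21 for Apoc3 minus Apoa4. Cyclic loess called 950 genes (637 higher) and median centring 550 (340 higher), beside 792 (522 higher). No paired analysis was possible because the labels give no replicate numbers that the groups share. With 3 arrays a group, small differences between bright genes could be missed. Apoh had an unadjusted limma p of 0.00625 after quantile normalization and was not called over all genes. Its adjusted p was 0.448 without an intensity trend, 0.728 with median centring and 0.709 with cyclic loess. Whether Apoh differs cannot be told from these arrays.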
